A study of Mus musculus with 8 samples.

Results

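The mRNAs of 36 focal adhesion and integrin genes were compared between ventricles of Pkn2 cKO and control mouse embryos at E10.5. The set was a list of names, 14 integrin subunits and 22 adaptors that couple integrins to actin (talins, vinculin, kindlins, ILK, PINCH and parvin proteins, filamins, kinases and LIM scaffolds). All 36 symbols were found among the 55291 symbols of the count table, and all 36 reached the minimum total of 8 counts, as 26820 genes did in all, and so were tested. Both groups carried floxed Pkn2 alleles (Pkn2 fl/fl) on a C57BL/6 background, given as C57BL/6N in the breeding notes. The 4 cKO libraries came from embryos that also carried XMLC2-Cre, a cardiomyocyte driver, and the 4 control libraries from Cre-negative littermates. Deletion was therefore targeted to cardiomyocytes, while whole ventricular tissue was sequenced after poly(A) selection, so endothelial, epicardial, blood and other cells contributed to each library. No control carried XMLC2-Cre without floxed alleles among these samples. The study's methods name the single animal or embryo as the unit unless stated otherwise, and describe no pooling for these libraries.

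Integrins are alpha and beta subunit pairs that bind extracellular matrix or ligands on other cells. Talins and kindlins bind the beta tail and switch the receptor to its active state, vinculin and filamins tie it to actin, and ILK, PINCH and parvin form a complex behind it. Focal adhesion kinase (Ptk2), Src and p130Cas (Bcar1) relay signals from these sites. In the embryonic ventricle, such contacts join cardiomyocytes and endocardium to a matrix rich in laminin, collagen and fibronectin. PKN2, the product of Pkn2, is a serine/threonine kinase.

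Sequencing depth was similar in all libraries, at 47559845 to 56660938 counts, and members took 0.580 to 0.699% of each total. Levels are given as CPM, read counts scaled to library size with TMM factors, for comparisons of 1 gene between libraries. Pkn2 itself was at 83.1, 77.6, 79.6 and 84.3 CPM in cKO 1 to 4 and 133, 139, 152 and 153 CPM in control 1 to 4. The mean was 81.2 ± 3.07 CPM over the 4 cKO libraries and 144 ± 9.85 CPM over the 4 controls (SD), 56.3% of the control level (log2 fold change -0.83 ± 0.060 SE, edgeR adjusted p = 7.7e-06), and counts per gene do not tell the floxed exon from the rest of the transcript. The 13 cardiomyocyte markers summed to 40714 to 43917 CPM in cKO and 40579 to 44952 CPM in controls, so markers of the labelled tissue were abundant in every library and the groups overlapped. All 8 libraries had Y-linked transcripts (Ddx3y at 47.0 to 60.9 CPM) and little Xist (0.0801 to 2.24 CPM).

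Members were more often higher than lower in cKO, but few passed the test. Of the 36 genes, 27 had a positive log2 fold change and the median was 0.12, beside 49.8% positive and a median of -0.00085 over all genes tested. Among the 9858 genes with a mean of at least 10 CPM, where 28 of the 36 members lay, 40.8% were positive. At an adjusted p of at most 0.05 in edgeR's quasi-likelihood test, 3 of 36 members rose (Flna, Itga6 and Itga1) and none fell. The same threshold called 0.858% of all genes tested (0.515% higher and 0.343% lower) and 1.65% of those with at least 10 CPM (0.903% higher). No member passed this threshold together with a fold change of at least 1.5, which called 0.365% of all genes, although 16 members had an unadjusted p under 0.05 (13 higher and 3 lower in cKO), against 12.8% of all genes tested (6.61% higher and 6.2% lower) and 19.9% of genes with at least 10 CPM. For 6 members the 4 cKO values did not overlap the 4 control values, with Itga1, Itga6, Flna, Zyx and Vasp higher and Tln2 lower, beside 6.91% of all genes (3.14% higher and 3.77% lower) and 11.1% of genes with at least 10 CPM. Taken apart, 11 of 14 integrins (median 0.18) and 16 of 22 adaptors (median 0.11) were positive. The adaptors include Ilk and Fermt1, which had under 1 CPM, and the difference between integrins and adaptors was not tested.

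**Figure D1:**
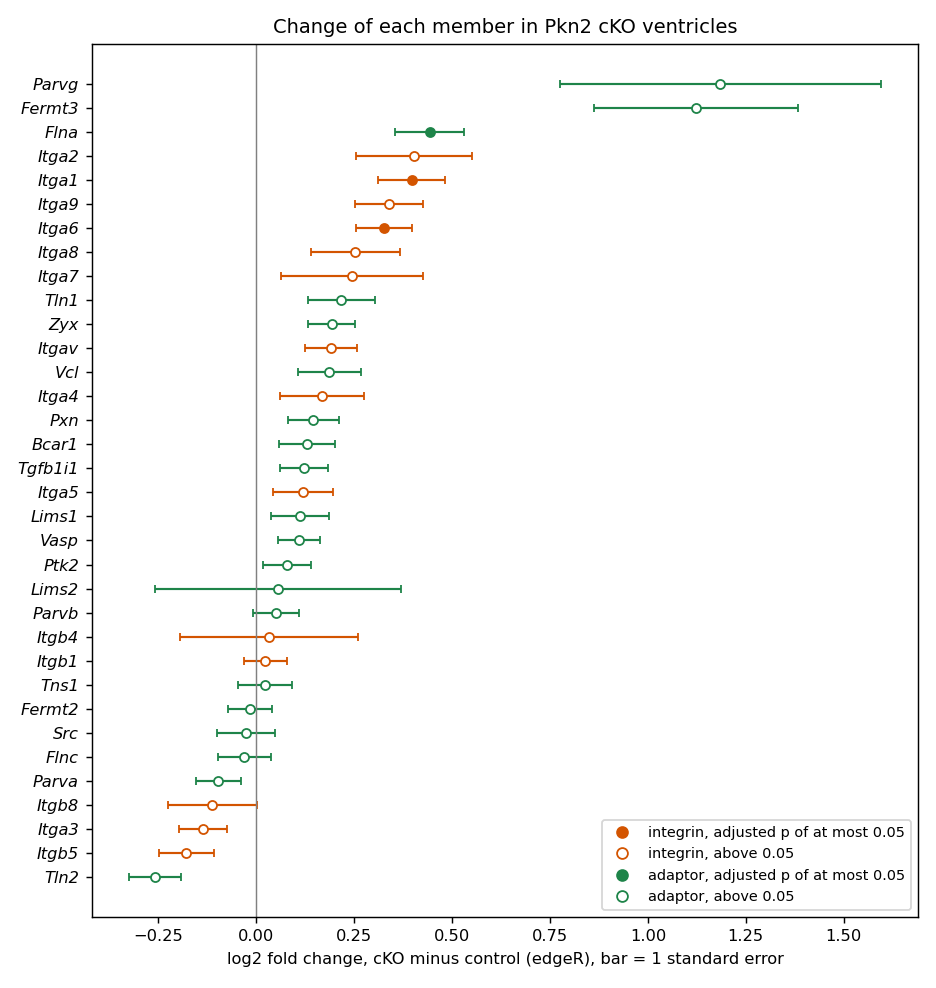
Log2 fold change of each member, cKO minus control, from edgeR, with bars of 1 standard error, for 34 of the 36 genes (Ilk and Fermt1, under 1 CPM, are left out). Integrins are orange, adaptors are green and filled points have an adjusted p of at most 0.05, which holds for Flna, Itga1 and Itga6; Fermt3 and Parvg lie farthest to the right with wide bars, and Tln2 lies farthest to the left.

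The libraries did not contribute evenly to this shift. Summed over the 14 integrins, the level was 2156, 2030 and 1899 CPM in cKO 1, 2 and 3 and 2055 CPM in cKO 4. Every one of these exceeded the control range of 1754 to 1884 CPM, cKO 3 only just. With every gene counted equally, the integrin mean log2 CPM relative to controls was 0.063 in cKO 3, below the 0.067 of control 2. Summed over the 22 adaptors it was 4854, 4423 and 3990 CPM in cKO 1, 2 and 3 and 4686 CPM in cKO 4, against 3948 to 4244 CPM in controls, so cKO 3 lay within the control range. Markers of some other cells were also highest in cKO 1 and cKO 4. The 23 endothelial and endocardial markers all had positive log2 fold changes (11 passed the test, median 0.44) and summed to 2876 and 2957 CPM in cKO 1 and 4, 2351 and 2318 CPM in cKO 2 and 3, and 1836 to 2125 CPM in controls. Macrophage markers were positive for 12 of 12 genes (14.3 to 46.6 CPM summed in cKO, 8.13 to 15 CPM in controls), and megakaryocyte and platelet markers for 9 of 9 (26.1 to 91.0 and 16.7 to 45.5 CPM). No gene of these 3 lists was without counts, and their part in the member results was not tested. In bulk tissue a change in the number of cells of a type and a change in RNA per cell cannot be told apart.

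**Figure D2:**
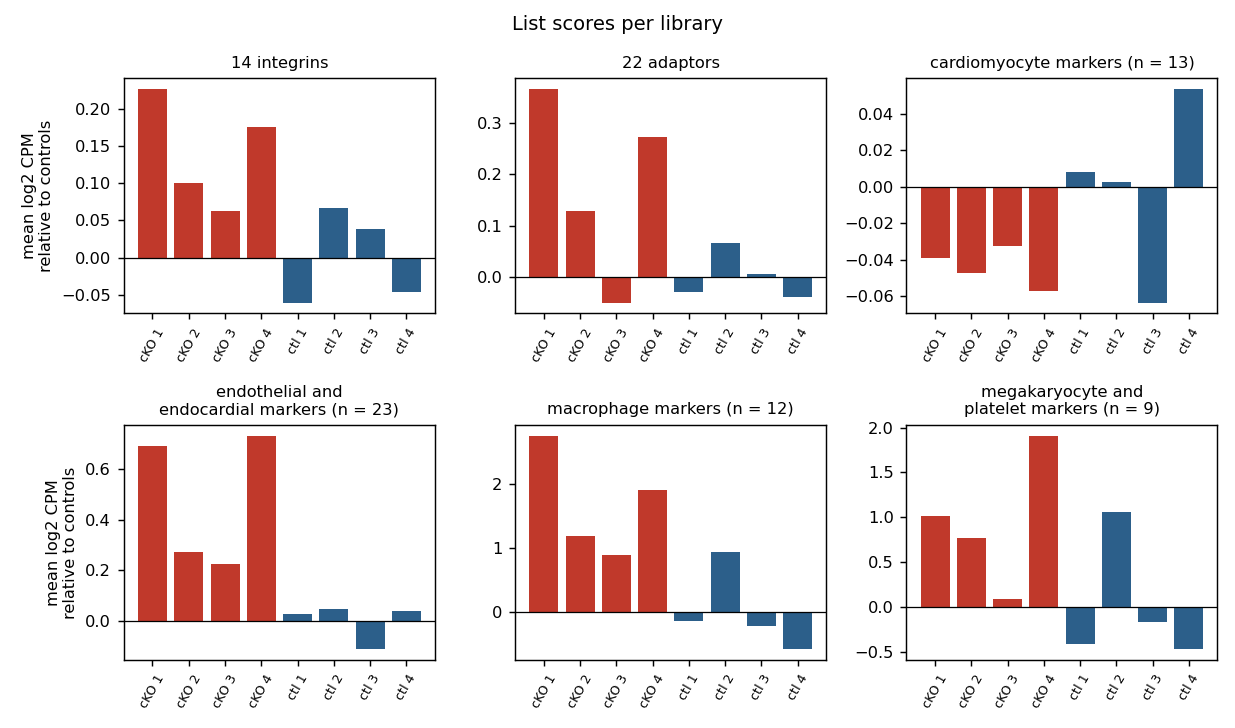
Mean log2 CPM of each gene list per library relative to the mean of the control libraries, for the 14 integrins, the 22 adaptors and 4 cell type marker lists, with cKO in red and controls (ctl) in blue. Each panel has its own vertical axis, and every gene counts equally, low ones included. The integrin, adaptor and endothelial panels share their highest bars, cKO 1 and cKO 4, and the adaptor bar of cKO 3 is below 0.

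Without cKO 1 and cKO 4, a setting chosen after seeing the data, 23 of 36 members were positive and none was called, with 10 at an unadjusted p under 0.05. The adaptors then split 12 positive to 10 negative, with a median of 0.031, while the integrins had 11 of 14 positive with a median of 0.12, not all the same genes, since Itgb4 turned negative (-0.30) and Itgb8 positive (0.030). The number of calls also fell to 0 without cKO 1, control 1, control 3 or control 4, and rose to 8 without cKO 3.

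Within a library, length-scaled transcript levels (TPM) ordered the members. Itgb1, the beta subunit shared by most matrix-binding integrins, led the integrins at 365 ± 9.76 TPM over the 4 cKO libraries and 351 ± 17.8 TPM over the 4 controls (mean ± SD). Itga6 followed at 160.0 ± 18.1 TPM over the 4 cKO libraries and 125 ± 10.1 TPM over the 4 controls (mean ± SD), and Itga5, the fibronectin receptor subunit, at 111 ± 13.6 TPM over the 4 cKO libraries and 99.9 ± 6.23 TPM over the 4 controls (mean ± SD). Itgb5 (34.8 TPM in controls), Itgav (23.1), Itga1 (21.5), Itga9 (19.7), Itga3 (18.7) and Itga4 (18.1) formed a middle group in which Itga9, Itga3 and Itga4 lay within 1 SD of each other. Itgb8 (3.59 TPM), Itga8 (2.28) and Itga2 (1.35) were lower, and Itga7 (0.969) and Itgb4 (0.393) were below 1 TPM in controls. Among adaptors in controls Ilk was highest, with 200.1 ± 7.80 TPM over the 4 cKO libraries and 185 ± 4.33 TPM over the 4 controls (mean ± SD). In controls Flnc (151 ± 12.2 TPM), Fermt2 (147 ± 9.95) and Flna (145 ± 12.4) did not differ beyond their SD, and in cKO the mean of Flna (202 ± 32.2 TPM) was above that of Flnc (150.3 ± 13.4). Zyx, Tgfb1i1 and Vasp lay between 126 and 139 TPM in controls, Tln1, Vcl and Parva between 82.6 and 87.2, and Lims1, Bcar1, Parvb, Ptk2, Tns1, Pxn and Tln2 between 33.8 and 66.3. Src (16.8 TPM) and Fermt3 (6.08) were lower, Lims2 (1.47) and Parvg (0.433) lower still, and Fermt1 (0.0201) was almost undetected.

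**Figure D3:**
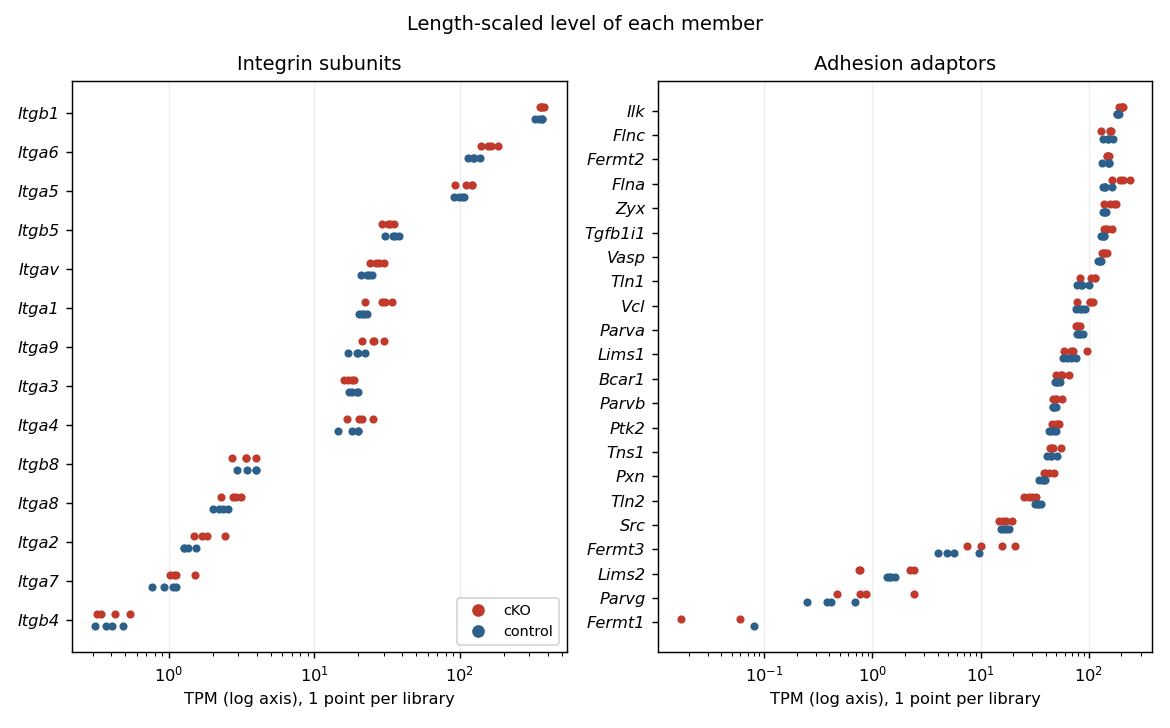
TPM of each member on a log axis, 1 point per library, with integrins on the left and adaptors on the right, ordered by level, cKO in red and controls in blue; libraries at 0 TPM (Fermt1) have no point. Itgb1, Itga6 and Itga5 stand apart from the other integrins, and the red and blue points of most genes overlap.

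Ilk, the pseudokinase at the centre of the ILK complex, was measured differently by the 2 tables. Its length-scaled level was 208, 202, 189.6 and 201 TPM in cKO 1 to 4 and 184, 191, 180.4 and 183 TPM in control 1 to 4. The values of cKO 1, 2 and 4 were above every control, and cKO 3 was just below control 2. In the count table, however, Ilk had only 50 counts over all 8 libraries, 0.0353 to 0.214 CPM. Its ratio of mean CPM to mean TPM was 0.00063, beside 0.934 to 6.77 for the other 35 members. The gene overlaps Rrp8 and Taf10 on the opposite strand, and the cause of the gap was not tested. Ilk is therefore described by TPM, where limma on log2(TPM + 1) gave a log2 fold change of 0.12 (unadjusted p = 0.0122, adjusted p = 0.327).

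Promoters of 27 members were present in the RefSeq table (34 start sites, GRCm38.p6), and the 250 bases before the start were searched on both strands. The GC box, GGGCGG, was in 61.8% of the member windows and in 32.7% of all 32851 windows. These shares were not adjusted for base content. Member windows held from 34.8% G and C (at a Lims1 start) to 82.8% (Src), and the median of all windows was 52.4%. Some RefSeq starts lay far from the gene start as deposited, by 28497 bases at that Lims1 start, 5849 at Src and 105002 at Itga9. Their windows count in the motif shares. The windows of the 2 starts of Ilk overlap each other, as do those of Flnc. TATAAA was in 2.94% of member windows against 12.4% of all, GGAATG, the core bound by TEAD factors, in 11.8% against 12.6%, and CACGTG, the E-box, in 5.88% against 6.02%. The CArG box, bound by serum response factor, was in 2 member windows, those of Vcl and Fermt2, 5.88% against 1.47% of all. GC-box matches could overlap each other, and a match marks letters only. Printed here are the windows of Itga1 and Flna, which rose, and of Itgb1 and Vcl, the shared beta subunit and a central adaptor, which did not pass the test, each 5′ to 3′ with GC boxes, TEAD cores and CArG boxes of either strand in capitals. Itga1 spans chr13:115101965-115102214 on the minus strand, Itgb1 chr8:128685404-128685653 on the plus strand, Vcl chr14:20929148-20929397 on the plus strand and Flna chrX:74246535-74246784 on the minus strand, where this RefSeq start lies 3286 bases inside the gene as placed in the deposited tables.
Itga1: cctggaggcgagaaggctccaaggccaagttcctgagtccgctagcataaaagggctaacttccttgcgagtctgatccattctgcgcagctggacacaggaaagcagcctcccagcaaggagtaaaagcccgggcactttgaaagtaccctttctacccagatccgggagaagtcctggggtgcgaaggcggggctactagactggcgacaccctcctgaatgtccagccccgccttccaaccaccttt
Flna: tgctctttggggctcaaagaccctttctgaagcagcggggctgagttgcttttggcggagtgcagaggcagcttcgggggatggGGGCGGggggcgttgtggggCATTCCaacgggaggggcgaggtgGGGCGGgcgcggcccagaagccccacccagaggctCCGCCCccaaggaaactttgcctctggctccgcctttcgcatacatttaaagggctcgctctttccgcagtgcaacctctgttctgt
Itgb1: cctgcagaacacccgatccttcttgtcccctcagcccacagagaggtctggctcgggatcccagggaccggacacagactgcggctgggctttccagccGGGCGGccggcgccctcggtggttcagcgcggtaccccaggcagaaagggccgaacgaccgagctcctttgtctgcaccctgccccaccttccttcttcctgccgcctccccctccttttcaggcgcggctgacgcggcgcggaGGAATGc
Vcl: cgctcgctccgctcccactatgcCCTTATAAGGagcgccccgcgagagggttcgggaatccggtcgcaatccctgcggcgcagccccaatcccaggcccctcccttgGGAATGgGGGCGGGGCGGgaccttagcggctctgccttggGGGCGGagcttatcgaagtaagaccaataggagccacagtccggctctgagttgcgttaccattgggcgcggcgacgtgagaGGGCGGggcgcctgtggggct
The Itga1 window held none of the capitalised motifs, and the Flna window held 3 GC boxes and 1 TEAD core. The Itgb1 window held 1 GC box and 1 TEAD core, and the Vcl window 4 GC boxes, 1 TEAD core and a CArG box that began 227 bases before the start.

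The laminin-binding alpha subunits had log2 fold changes of both signs, and 1 of the 3 rose. Itga6 (chr2:71786940-71856771, plus strand, GRCm38), which pairs with beta1 or beta4, was at 426, 380.4, 335 and 364 CPM in cKO 1 to 4 and 277, 317, 298 and 309 CPM in control 1 to 4. Every cKO library was above every control, and cKO 1 was the highest. It averaged 377 ± 38 CPM over the 4 cKO libraries and 300.3 ± 17.5 CPM over the 4 controls (mean ± SD), a rise of 1.25-fold (log2 fold change 0.33 ± 0.071 SE, edgeR adjusted p = 0.0416). Itga3, another laminin receptor subunit, was at 43.3, 50.2, 47.3 and 48.7 CPM in cKO 1 to 4 and 51.2, 52.5, 55.2 and 49.4 CPM in control 1 to 4. In 3 of 4 cKO libraries it was below all controls, and the difference did not pass the test (log2 fold change -0.14 ± 0.062 SE, edgeR adjusted p = 0.371). Itga7, the muscle laminin receptor subunit, was low at 2.37 to 3.39 CPM in cKO and 1.86 to 2.57 CPM in controls (log2 fold change 0.24 ± 0.18 SE, edgeR adjusted p = 0.658).

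Both collagen-binding alpha subunits had positive log2 fold changes near 0.40. Itga1 (chr13:114953096-115101964, minus strand, GRCm38) was at 196, 174, 133 and 169 CPM in cKO 1 to 4 and 122, 129, 130.2 and 129 CPM in control 1 to 4. All cKO values were above all controls, which lay close together, but cKO 3 was only just above them. It averaged 168 ± 25.9 CPM over the 4 cKO libraries and 128 ± 3.94 CPM over the 4 controls (mean ± SD), a rise of 1.32-fold (log2 fold change 0.40 ± 0.087 SE, edgeR adjusted p = 0.0422). Pelo and Gm49395 lie inside Itga1 on the same strand, and Gm10734 on the opposite strand, which this library kit cannot tell apart. Reads of these genes could be split by the counting. Itga2 was at 9.48, 5.82, 6.61 and 7.19 CPM in cKO 1 to 4 and 5.21, 5.27, 6.34 and 5.19 CPM in control 1 to 4. It exceeded all controls in 3 of 4 cKO libraries and was highest in cKO 1, without passing the test (log2 fold change 0.40 ± 0.15 SE, edgeR adjusted p = 0.241).

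The subunits that recognise the RGD motif of fibronectin and vitronectin were all positive and none passed the test. Itgav was at 116, 102, 94.9 and 108 CPM in cKO 1 to 4 and 84, 95.4, 95.4 and 93.1 CPM in control 1 to 4. The highest value was again in cKO 1, and cKO 3 lay inside the control range (log2 fold change 0.19 ± 0.067 SE, edgeR adjusted p = 0.21). Itga8, the nephronectin receptor subunit, was at 7.04, 8.69, 8.27 and 9.28 CPM in cKO 1 to 4 and 6.38, 7.11, 7.37 and 7.09 CPM in control 1 to 4. Here cKO 1 was the lowest of the cKO libraries and inside the control range (log2 fold change 0.25 ± 0.11 SE, edgeR adjusted p = 0.364). Itga5 ranged from 227 to 291 CPM in cKO and from 227 to 266 CPM in controls, with cKO 1 and 4 above all controls, cKO 3 just below them and cKO 2 inside their range (log2 fold change 0.12 ± 0.076 SE, edgeR adjusted p = 0.572).

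Itga4 and Itga9 form the remaining alpha pair, receptors for VCAM1, fibronectin and tenascin among others. Itga9 was at 116, 97.1, 83.9 and 97.7 CPM in cKO 1 to 4 and 79.9, 84.6, 68.5 and 79.3 CPM in control 1 to 4. It was above all controls in 3 of 4 cKO libraries, while cKO 3 was between control 1 and control 2, and the difference missed the threshold (log2 fold change 0.34 ± 0.086 SE, edgeR adjusted p = 0.0821). DESeq2, the fit with replicate number as a block and the fit without a count filter called it. Itga4 was at 87 to 129.9 CPM in cKO and 77.5 to 108 CPM in controls (log2 fold change 0.17 ± 0.11 SE, edgeR adjusted p = 0.581). Over the 10 alpha subunits, 9 were positive with a median of 0.25, and this count of 9 also held in every alternative fit and without cKO 1 and 4.

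Of the 4 beta subunits 2 were positive and 2 negative, with a median of -0.045, and none passed the test. Itgb1 was at 794, 751, 775 and 774 CPM in cKO 1 to 4 and 722, 756, 801 and 766 CPM in control 1 to 4. The groups overlapped (log2 fold change 0.023 ± 0.054 SE, edgeR adjusted p = 0.926). It averaged 773 ± 17.7 CPM over the 4 cKO libraries and 761 ± 32.8 CPM over the 4 controls (mean ± SD). Itgb5, a partner of alpha v, was at 52.2, 49.3, 59.2 and 59.1 CPM in cKO 1 to 4 and 63.9, 65, 63.5 and 56.5 CPM in control 1 to 4. The values of cKO 1 and cKO 2 were below all controls, without passing the test (log2 fold change -0.18 ± 0.070 SE, edgeR adjusted p = 0.282). Itgb8, also a partner of alpha v, ranged from 12.6 to 18.7 CPM in cKO and 14.2 to 18.9 CPM in controls (log2 fold change -0.11 ± 0.11 SE, edgeR adjusted p = 0.776). Itgb4, the partner of alpha6 in hemidesmosomes, was at 1.21 to 2.11 CPM in cKO and 1.18 to 1.99 CPM in controls (log2 fold change 0.033 ± 0.23 SE, edgeR adjusted p = 0.978).

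**Figure D4:**
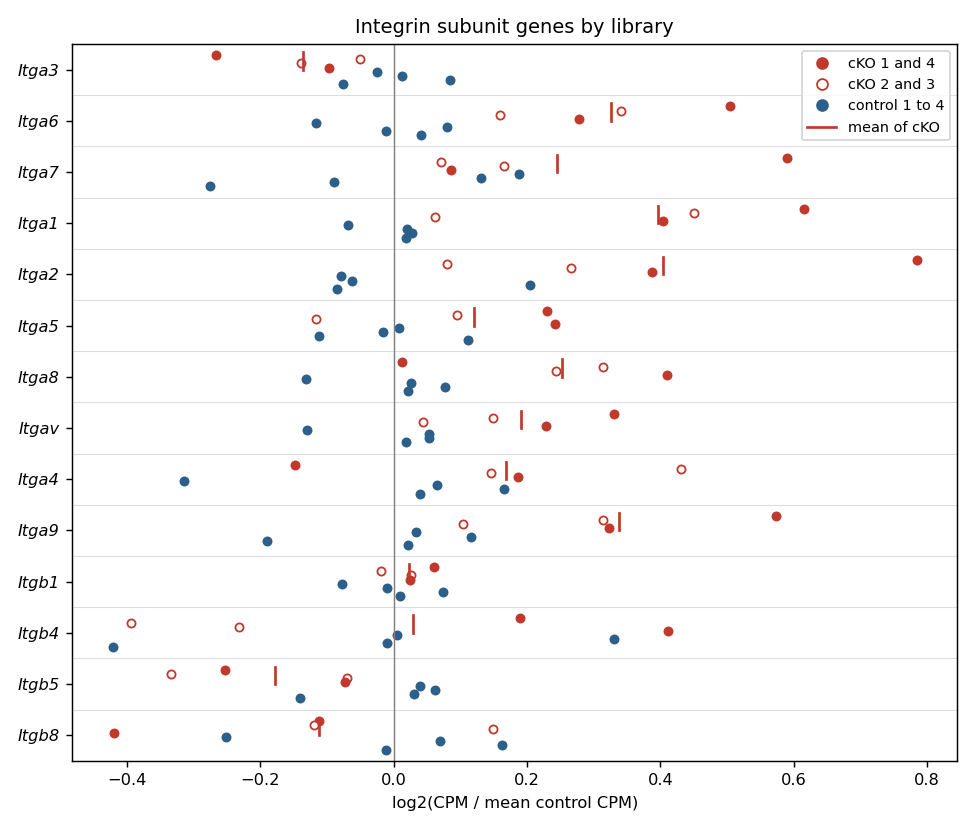
Each integrin gene in each library as log2 of CPM over the control mean, with cKO 1 and 4 as filled red points, cKO 2 and 3 as open red points, controls in blue and a red tick at the cKO mean. Red and blue points separate for Itga6 and Itga1, while they mix for Itgb1, Itgb4 and Itgb8.

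Of the adaptors that bind the integrin tail first, the 2 talins had log2 fold changes of opposite sign, and neither passed the test. Tln1, the broadly expressed talin, was at 522, 478, 396 and 526 CPM in cKO 1 to 4 and 412, 459, 368 and 415 CPM in control 1 to 4. Cardiac muscle also uses Tln2, which was at 215, 197, 173 and 186 CPM in cKO 1 to 4 and 232, 238, 218 and 233 CPM in control 1 to 4. All 4 cKO values of Tln2 were below all 4 controls, and cKO 3 was the lowest. It averaged 193 ± 18.2 CPM over the 4 cKO libraries and 230.5 ± 8.50 CPM over the 4 controls (mean ± SD), short of the threshold (log2 fold change -0.26 ± 0.066 SE, edgeR adjusted p = 0.0823), and among the alternatives only DESeq2 and the fit without a count filter called it. Tln1 was above all controls in 3 of 4 cKO libraries, cKO 3 excepted (log2 fold change 0.22 ± 0.086 SE, edgeR adjusted p = 0.286). Vcl, vinculin, which binds stretched talin, was at 234, 222, 175 and 221 CPM in cKO 1 to 4 and 170.2, 195, 186 and 197 CPM in control 1 to 4. It had the same pattern, with cKO 3 in the control range (log2 fold change 0.19 ± 0.080 SE, edgeR adjusted p = 0.339).

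The kindlins, which bind the beta tail beside talin, lay at very different levels, and none passed the test. Fermt2, the main kindlin of the heart, ranged from 269 to 281 CPM in cKO and from 255 to 293 CPM in controls (log2 fold change -0.015 ± 0.056 SE, edgeR adjusted p = 0.954). Fermt3, the kindlin of blood cells and platelets, was at 22.5, 14.8, 11.3 and 29.9 CPM in cKO 1 to 4 and 6.21, 13.8, 7.49 and 8.65 CPM in control 1 to 4. The cKO 4 and cKO 1 libraries were the highest, control 2 was above cKO 3, and the 2.18-fold difference missed the threshold (log2 fold change 1.12 ± 0.26 SE, edgeR adjusted p = 0.0561). The summed platelet markers were at 51.8, 38, 26.1 and 91.0 CPM in cKO 1 to 4 and 17.7, 45.5, 19.997 and 16.7 CPM in control 1 to 4. The 4 cKO libraries had the same order for both. Control 2 was the highest control for both, but the other controls were ordered differently. The part of the platelet markers in the Fermt3 difference was not tested. Without cKO 1 and 4 the log2 fold change of Fermt3 was 0.54. In edgeR, Fermt3 passed the threshold in 3 of 8 fits with 1 library left out. It also passed without a count filter and with replicate number as a block. Fermt1, the epithelial kindlin, was at 0.0179 to 0.159 CPM in cKO and 0 to 0.212 CPM in controls, too few counts for a fold change.

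In the ILK complex, apart from Ilk itself, 5 of the genes were the PINCH adaptors Lims1 and Lims2 and the 3 parvins. Lims1 ranged from 129 to 165 CPM in cKO and from 127 to 144 CPM in controls (log2 fold change 0.11 ± 0.074 SE, edgeR adjusted p = 0.603). Lims2 was low and split by library, at 2.04 and 2.12 CPM in cKO 1 and 4, 0.810 and 0.746 CPM in cKO 2 and 3, and 1.06 to 1.61 CPM in controls (log2 fold change 0.055 ± 0.31 SE, edgeR adjusted p = 0.972). Parva, the broadly expressed parvin, ranged from 191 to 204 CPM in cKO and 199.8 to 227 CPM in controls (log2 fold change -0.097 ± 0.057 SE, edgeR adjusted p = 0.531). Parvb ranged from 101 to 119 CPM and from 102 to 104 CPM (log2 fold change 0.050 ± 0.059 SE, edgeR adjusted p = 0.808). Parvg, the parvin of blood cells, was at 3.61, 1.25, 0.788 and 1.18 CPM in cKO 1 to 4 and 0.776, 1.10, 0.724 and 0.401 CPM in control 1 to 4. Its difference rested mostly on cKO 1 (log2 fold change 1.19 ± 0.41 SE, edgeR adjusted p = 0.207), and without that library the log2 fold change was 0.52. The macrophage markers were also highest in cKO 1, at 46.6 CPM summed, and their part was not tested.

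Of the 2 filamins, which cross-link actin and bind beta tails, Flna rose and Flnc did not pass the test. Flna (chrX:74223461-74249820, minus strand, GRCm38) was at 1120.0, 909, 775 and 981 CPM in cKO 1 to 4 and 691, 750.4, 651 and 692 CPM in control 1 to 4. Every cKO library was above every control, and the order within cKO was cKO 1, cKO 4, cKO 2, cKO 3. It averaged 946 ± 144 CPM over the 4 cKO libraries and 696 ± 41 CPM over the 4 controls (mean ± SD), a rise of 1.36-fold (log2 fold change 0.44 ± 0.089 SE, edgeR adjusted p = 0.0264), and Flna was the only member that kept its call with Xist as a covariate. Flnc, the muscle filamin, ranged from 665 to 784 CPM in cKO and from 694 to 803 CPM in controls (log2 fold change -0.031 ± 0.067 SE, edgeR adjusted p = 0.919). In cKO 3 the endothelial markers were the nearest to controls of the 4, at 2318 CPM summed beside 2351 CPM in cKO 2. Flna was at 775 CPM in cKO 3, nearest to the highest control at 750.4 CPM, and at 909 CPM in cKO 2. Any part of the endothelial markers in the Flna difference was not tested.

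None of the kinases and their substrate Cas passed the test. Ptk2, focal adhesion kinase, was at 123, 115, 110.5 and 123 CPM in cKO 1 to 4 and 105, 111, 108 and 122 CPM in control 1 to 4. The groups overlapped (log2 fold change 0.079 ± 0.061 SE, edgeR adjusted p = 0.675). Src, its partner kinase, ranged from 33.4 to 41.8 CPM in cKO and from 35.3 to 40.9 CPM in controls (log2 fold change -0.025 ± 0.074 SE, edgeR adjusted p = 0.941). Bcar1, p130Cas, ranged from 87.5 to 113 CPM in cKO and from 86.7 to 96.7 CPM in controls (log2 fold change 0.13 ± 0.071 SE, edgeR adjusted p = 0.489).

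All 5 LIM scaffold, VASP and tensin genes were positive, with none past the threshold. Zyx, zyxin, which is recruited to stressed actin bundles, was at 233, 221, 208 and 250.4 CPM in cKO 1 to 4 and 197, 199, 196 and 207 CPM in control 1 to 4. All cKO values were above all controls, by a small margin in cKO 3 (log2 fold change 0.19 ± 0.061 SE, edgeR adjusted p = 0.159). Zyx overlaps Gm44284 and Epha1 on the opposite strand, which this library kit cannot tell apart. The same limit holds for other members with an overlap on the opposite strand, among them Itga4, Tln1, Tln2, Vcl and Vasp. Vasp, an actin polymerase that binds zyxin, was at 169, 168, 166 and 184 CPM in cKO 1 to 4 and 156, 156, 160.0 and 164 CPM in control 1 to 4. Its groups also did not overlap, with an unadjusted p of 0.0592 (log2 fold change 0.11 ± 0.054 SE, edgeR adjusted p = 0.416). Pxn, paxillin, was at 86.4, 80.0, 80.0 and 97.7 CPM in cKO 1 to 4 and 80.4, 77.4, 78.5 and 74.8 CPM in control 1 to 4. The values of cKO 2 and cKO 3 lay just below control 1 (log2 fold change 0.15 ± 0.066 SE, edgeR adjusted p = 0.368). Tgfb1i1, the paxillin relative Hic-5, ranged from 159.7 to 189.9 CPM in cKO and from 152 to 166 CPM in controls (log2 fold change 0.12 ± 0.061 SE, edgeR adjusted p = 0.429). Tns1, tensin, ranged from 232 to 289 CPM and from 235 to 256 CPM (log2 fold change 0.023 ± 0.069 SE, edgeR adjusted p = 0.942).

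**Figure D5:**
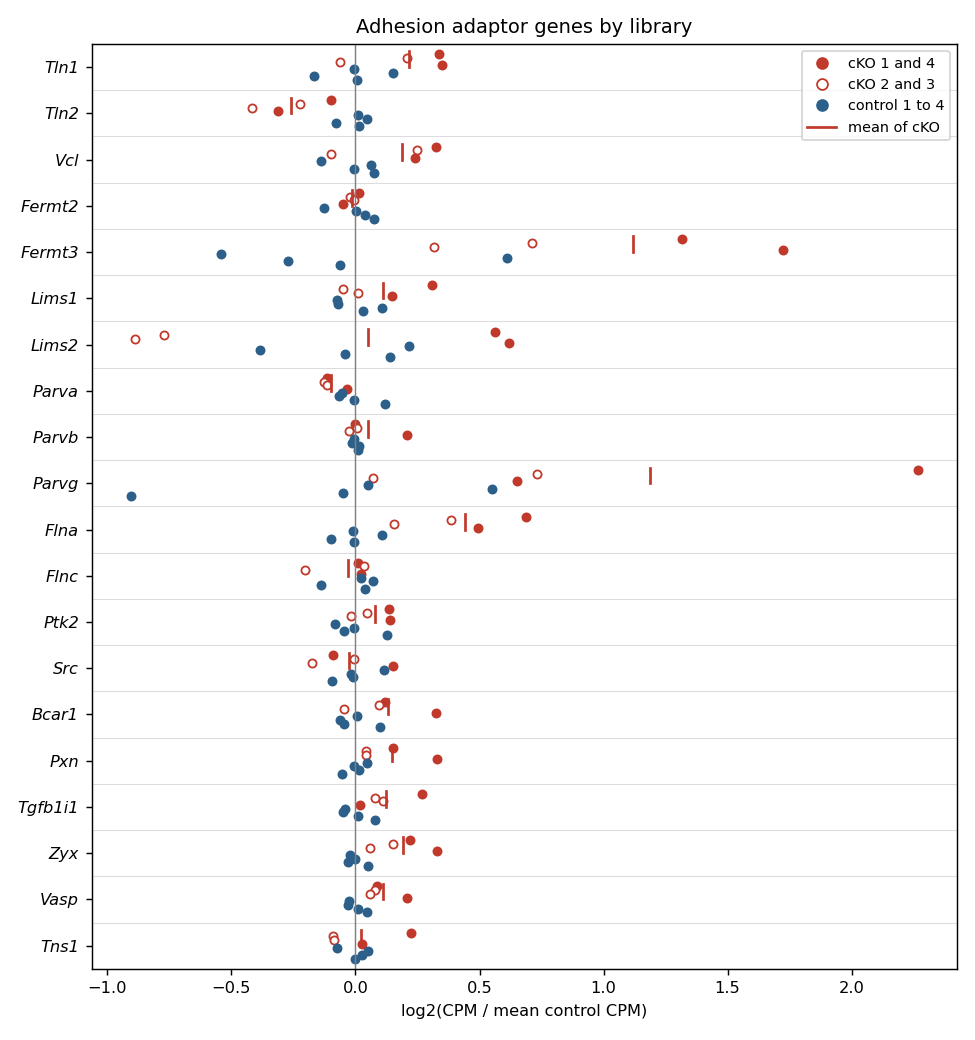
Each adaptor gene in each library as log2 of CPM over the control mean, in the symbols used for the integrins, for 20 of the 22 adaptors (Ilk and Fermt1, under 1 CPM, are left out). Red and blue points separate for Flna, Zyx, Vasp and Tln2, and Fermt3, Lims2 and Parvg spread most.

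Other genes of the pathway were read from 3 lists. Of 12 other integrin subunits 9 were positive (median 0.48), and Itgb2, the beta subunit of leukocytes, rose (log2 fold change 1.02 ± 0.21 SE, edgeR adjusted p = 0.0326) from a mean of 1.80 CPM in controls to 3.65 CPM in cKO. Its log2 fold change was 0.68 without cKO 1 and 4. Of 50 other adhesion adaptors and regulators 33 were positive (median 0.067) and 2 rose. Among those that rose was Itgb1bp2, melusin, a striated muscle protein that binds the beta1 tail, at 102, 85.5, 95.7 and 83.9 CPM in cKO 1 to 4 and 68, 67.2, 71.3 and 71 CPM in control 1 to 4. All its cKO values were above all controls (log2 fold change 0.40 ± 0.065 SE, edgeR adjusted p = 0.00849).

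The list of integrin ligands, mostly of the matrix but with the cell surface protein Vcam1 among them, held changes in both directions. Of 28 genes 27 were tested, 20 were positive (median 0.18), and 2 rose and 2 fell at an adjusted p of at most 0.05. Vcam1, a ligand of alpha4 beta1, was at 50.9, 54.1, 52.8 and 52.4 CPM in cKO 1 to 4 and 84.9, 91.9, 90.8 and 113 CPM in control 1 to 4. The groups did not overlap and the level fell by 0.86 on the log2 scale (edgeR adjusted p = 7.5e-05). Npnt, nephronectin, the ligand of alpha8 beta1, was at 29.4, 31.2, 34 and 33.3 CPM in cKO 1 to 4 and 45.7, 51, 55.4 and 49.1 CPM in control 1 to 4. It fell by 0.65 on the log2 scale without overlap (edgeR adjusted p = 0.000589), beside Itga8 with 8.32 ± 0.947 CPM over the 4 cKO libraries and 6.99 ± 0.426 CPM over the 4 controls (mean ± SD). Nid1, nidogen, which joins laminin to collagen IV, rose from a mean of 244 CPM in controls to 349.9 CPM in cKO (log2 fold change 0.52 ± 0.11 SE, edgeR adjusted p = 0.0331). Fbn1, fibrillin, rose from a mean of 287 CPM in controls to 386 CPM in cKO (log2 fold change 0.43 ± 0.088 SE, edgeR adjusted p = 0.0294). Leaving out any 1 library kept Vcam1, Npnt and Itgb1bp2 past the threshold in 8 of 8 fits, while Itgb2 kept it in 3, and Nid1 and Fbn1 in 4. Without cKO 1 and 4 together, Vcam1, Npnt and Itgb1bp2 were past the threshold and Itgb2, Nid1 and Fbn1 were not. Over that fit and the other alternative fits, 10 in all, Vcam1 was past it in 9 and Npnt and Itgb1bp2 in 8 each. Itgb2, Nid1 and Fbn1 were past it in 7 each.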

How the data were processed

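Ventricular RNA of 8 samples (4 cKO, 4 control) was extracted with TRIzol, poly(A)-selected and built into TruSeq RNA v2 libraries, which do not mark strand. The labels give reads of 150 bp and the series text 100 bp. The authors deposited a table of unnormalized counts with 1 row per gene symbol and a second table of TPM values, which they computed per library with no pooling. The paper names the nf-core/rnaseq workflow, and the submitters' processing notes list FastQC, Trim Galore 0.6.7, HISAT2 2.2.1, StringTie 2.2.1, featureCounts and DESeq2 with GRCm39, without saying which tool made which table. Gene positions in the TPM table, however, lay within 1000 bases of the GRCm38 start for 85.75% of 37922 genes and of the GRCm39 start for 3.262%, so coordinates here are GRCm38.

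Groups came from the sample labels. Genes whose counts summed to 8 or more were tested with edgeR 4.0.16 (R 4.3.3), by TMM scaling, the design ~ condition and the quasi-likelihood F test, with Benjamini-Hochberg adjustment over all 26820 genes. Standard errors are the fold change over the root of F, and CPM are TMM-scaled. Depth, 47559845 to 56660938 counts, leaves counting error small except for the 8 members under 10 CPM. Nothing states that samples came from separate litters. No 2 libraries were alike within sampling noise (chi-square per degree of freedom 12.0 to 39.1 within groups). Alternatives were DESeq2 1.42.0, limma-voom (limma 3.58.1), DESeq2 size factors, filterByExpr, no filter, a replicate block, limma on log2(TPM + 1) and log2(TPM + 0.1), log2 Xist CPM as a covariate, leaving out each library, and a fold threshold of 1.5. Leaving out cKO 1 and 4 together was chosen after seeing the data. The count test was tested on simulated data. The members, gene lists and comparisons were chosen with earlier results of these data known. Every member is named, with each library's value where an unadjusted p was under 0.05, where groups did not overlap, and for Itgb1, Vcl, Ptk2 and Ilk. From the other pathway lists, genes past the threshold are named, at most 6 a list (1 is not reported here), and marker lists are given as counts and sums. Promoter sequences are from RefSeq.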

Additional observations from a re-analysis of the deposited data

Results flagged for a closer look

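In 88 groups of 4 libraries, 1 library stood apart from the other 3 for 8 member values, and chance alone gives this for about 1 in 20 groups. Among integrins these were Itga7 in cKO 1 at 3.39 CPM (the others at 2.37 to 2.53), Itga1 in control 1 at 122 CPM (129 to 130.2), Itga2 in control 3 at 6.34 CPM (5.19 to 5.27) and Itgb5 in control 4 at 56.5 CPM (63.5 to 65.0). Among adaptors they were Parva in cKO 4 at 204 CPM (191 to 193), Parvb in cKO 4 at 119 CPM (101 to 103), Parvg in cKO 1 at 3.61 CPM (0.788 to 1.25) and Flnc in cKO 3 at 665 CPM (769 to 784). Control 1, which set the low end of the Itga1 controls, also held the highest hepatic marker level, and no part of that in the Itga1 value was tested.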

How the results depend on the processing

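The 3 member calls, 2 integrins and 1 adaptor, depended on the tool and on single libraries. With 1 library left out, Flna kept its call in 4 of 8 fits, Itga6 in 2 and Itga1 in 1. DESeq2 called 6 members (3 adaptors) and 867 genes in all, the fit without a filter 7 (4 adaptors) and 878, limma-voom 2 (1 integrin), filterByExpr 2 (1 integrin, with 34 members tested), and the fit with Xist as a covariate 1 (0 integrins). On TPM, limma called 0 members, 0 integrins and 0 adaptors with either pseudocount, of 2 genes in all with 1 and 5 with 0.1, and 13 members had an unadjusted p under 0.05 in each. A fold change of at least 1.5 as well left 0 members, 0 integrins and 0 adaptors, and 98 of 230 genes. Leaving out 1 library gave 0 to 8 members, 0 to 3 integrins, 0 to 5 adaptors and 67 to 744 genes. The count was 0 without cKO 1, control 1, control 3 or control 4 (10, 12, 12 and 17 members at an unadjusted p under 0.05, edgeR), 8 without cKO 3 and 2 without each other library. Without cKO 1 and 4 it was 0 members, 0 integrins and 0 adaptors, and 103 genes. The causes were not tested, though fewer samples also remain in these fits.

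Deviations from the group mean in cKO and control libraries of the same replicate number correlated at -0.19, -0.030, 0.0056 and -0.14 for numbers 1 to 4 over 14302 genes. These values cannot show whether libraries of the same number came from the same litter, and the main fit did not pair them. The replicate block called 5 members, 2 of them adaptors, and 380 genes, adding Itga9 and Fermt3.

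Pkn2 kept its direction and call in every fit. Directions reversed only for the members named here. For Fermt1 the value was 0.43 with limma-voom, 0.33 with the replicate block, 0.012 on log2(TPM + 0.1), 0.76 with Xist and -0.73 to 1.11 over single libraries left out. For Lims2 it was -0.076, -0.066 with the block, -0.033 on log2(TPM + 1), -0.12 on log2(TPM + 0.1), -0.19 to 0.27 over libraries left out and -0.82 without cKO 1 and 4. Fermt2 was 0.021 on both TPM scales and -0.051 to 0.012 with a library left out. The same range was -0.12 to 0.17 for Itgb4, -0.074 to 0.025 for Flnc, -0.082 to 0.023 for Src and -0.044 to 0.068 for Tns1. Without cKO 1 and 4 the values were -0.30 for Itgb4, 0.030 for Itgb8, -0.0094 for Lims1, -0.00060 for Parvb and -0.081 for Tns1. Depth limits Fermt1 and, in counts, Ilk, both under 1 CPM.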

Other observations

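Marker lists of the remaining cell types held no gene past the adjusted threshold, though all erythroid genes were higher and all tested hepatic genes lower in cKO. Log2 fold changes were positive for 12 of 12 erythroid, 3 of 10 epicardial, 4 of 8 cushion mesenchyme, 4 of 6 smooth muscle and 0 of 10 hepatic genes tested. None of these genes passed the adjusted threshold in edgeR, and 1, 2, 1, 2 and 7 of them, in that order, had an unadjusted p under 0.05. The erythroid sum ran from 1419 CPM in cKO 2 to 4931 CPM in cKO 4 and from 1545 to 4769 CPM in controls, so the groups overlapped widely. The epicardial sum ran from 376 CPM in cKO 1 to 571 CPM in cKO 4, against 479.8 to 514 CPM in controls. The smooth muscle sum was 501 to 560.2 CPM in cKO and 468.5 to 517 CPM in controls. Hepatic markers summed to 29.4 CPM in control 1 and to 0.956 to 5.69 CPM in the other libraries.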
